A study of Mus musculus with 19 samples.

Results

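The 10 genes described here are germline genes whose promoters are held to be silenced by DNA methylation outside germ cells: Dazl, Ddx4, Mael, Asz1, Sycp1, Sycp3, Hormad1, Stk31, Tex101 and Slc25a31. They were chosen by name, and all 10 were found among the 54119 genes of the data. RNA was sequenced from 19 libraries of mouse embryonic stem cells (mESC), which are naive and pluripotent, and of epiblast-like cells (EpiLC), which model the next stage of the embryo, to ask whether TET3 is necessary for the step from the first to the second. The mESC were grown in N2B27 medium with a GSK3 inhibitor, a MEK1/2 inhibitor and LIF, and the EpiLC were made from them with FGF5 and Activin A in the absence of LIF over 5 days. There were 6 groups: wild-type XX cells of the LF2 line (3 mESC and 3 EpiLC libraries), wild-type XY cells of the E14 line (3 and 3), and XX Tet3-/- cells of the LF2 line (4 mESC libraries, mutants 1 to 4, and 3 EpiLC libraries, mutants 1, 3 and 4). Sex and line changed together, so XX and XY differences cannot be told apart from LF2 and E14 differences. The labels name no clones and no separate cultures, so p-values measure only the spread between these libraries, which may be technical.

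In somatic cells the CpG-rich promoters of these genes carry DNA methylation, which is laid down by DNMT3A and DNMT3B when the epiblast forms, and they lose it again in primordial germ cells. In naive mESC grown with kinase inhibitors, DNA methylation is low, and several such genes are transcribed. TET enzymes oxidise 5-methylcytosine, a step towards its removal. A repressor complex with MGA, MAX, L3MBTL2 and E2F6 binds many germline promoters and holds them silent as well. Methylation and protein binding were not measured here, and every value below is an RNA level.

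The genes lie on 7 chromosomes (GENCODE M21, GRCm38). Dazl is at chr17:50279395-50293636, Ddx4 at chr13:112598333-112652475, Mael at chr1:166201201-166238747, Sycp3 at chr10:88459569-88473236 and Tex101 at chr7:24668007-24676675. Chromosome 6 holds Asz1 (chr6:18050964-18109061) and Stk31 (chr6:49395604-49469501), and chromosome 3 holds Slc25a31 (chr3:40708855-40726096), Hormad1 (chr3:95559677-95587671) and Sycp1 (chr3:102818499-102936100).

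RefSeq promoter windows of GRCm38.p6, from 250 bases before to 50 bases after the start site, were at hand for 10 of the 10 genes. Across 32851 windows of this kind the median number of CG dinucleotides was 7 and the median ratio of observed to expected CG was 0.384. The 10 genes had between 15 and 38 CG (median 23) and ratios between 0.666 (Sycp3) and 0.978 (Ddx4), with a median of 0.789. An E-box of the letters CACGTG, which reads alike on both strands, was in the windows of 7 genes: Ddx4, Mael, Sycp1, Sycp3, Hormad1, Stk31 and Slc25a31. It was in 7.15% of all windows, and in 11.5% of the 10355 windows whose CG ratio was at least that of Sycp3. An E2F core, TCCCGC on either strand, was in the windows of 6 genes, those with an E-box other than Stk31, in 20.0% of all windows, and in 44.5% of those with such a CG ratio. Both words occurred together in 6 of the 10 genes, in 1.99% of all windows, and in 5.04% of those with such a CG ratio. The words do not overlap each other, and a match is a description of the letters and not of a bound site.

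The 250 bases before the start site are shown for 5 genes whose RNA went different ways: Dazl, Asz1 and Hormad1, which had their high levels in mESC, and Sycp3 and Mael, which had not. Capitals mark E-boxes and E2F cores.
Dazl promoter, chr17:50293621-50293870, minus strand, GRCm38.p6: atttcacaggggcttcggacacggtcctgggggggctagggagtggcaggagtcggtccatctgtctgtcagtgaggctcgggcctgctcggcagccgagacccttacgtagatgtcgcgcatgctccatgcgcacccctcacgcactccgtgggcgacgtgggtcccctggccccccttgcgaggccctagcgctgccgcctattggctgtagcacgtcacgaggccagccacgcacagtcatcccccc
Asz1 promoter, chr6:18109062-18109311, minus strand, GRCm38.p6: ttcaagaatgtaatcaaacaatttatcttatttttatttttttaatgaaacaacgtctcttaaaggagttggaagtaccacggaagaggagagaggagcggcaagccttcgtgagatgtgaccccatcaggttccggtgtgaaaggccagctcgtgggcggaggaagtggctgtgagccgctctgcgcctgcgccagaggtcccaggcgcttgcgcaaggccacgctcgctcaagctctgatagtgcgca
Hormad1 promoter, chr3:95559427-95559676, plus strand, GRCm38.p6: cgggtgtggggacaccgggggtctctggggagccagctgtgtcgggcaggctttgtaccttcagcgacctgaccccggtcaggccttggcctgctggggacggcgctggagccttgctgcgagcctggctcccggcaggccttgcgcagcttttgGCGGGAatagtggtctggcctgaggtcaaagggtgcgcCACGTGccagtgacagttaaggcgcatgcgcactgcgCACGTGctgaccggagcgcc
Sycp3 promoter, chr10:88459337-88459586, plus strand, GRCm38.p6: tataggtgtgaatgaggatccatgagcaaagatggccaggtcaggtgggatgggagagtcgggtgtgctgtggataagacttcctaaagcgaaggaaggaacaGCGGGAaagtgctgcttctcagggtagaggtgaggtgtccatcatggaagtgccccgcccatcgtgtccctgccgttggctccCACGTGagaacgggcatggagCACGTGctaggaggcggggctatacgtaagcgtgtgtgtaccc
Mael promoter, chr1:166238745-166238994, minus strand, GRCm38.p6: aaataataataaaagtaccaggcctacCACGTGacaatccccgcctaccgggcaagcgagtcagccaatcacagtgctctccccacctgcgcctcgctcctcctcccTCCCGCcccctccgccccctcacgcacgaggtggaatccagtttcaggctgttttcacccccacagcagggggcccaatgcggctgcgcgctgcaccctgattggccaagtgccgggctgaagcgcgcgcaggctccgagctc
The Dazl and Asz1 stretches held neither word. Hormad1 had E-boxes starting at -57 and -20 from the start site and Sycp3 had them at -64 and -43, and only 0.594% of all windows held 2 or more. In Mael the E-box lay further out, at -223. Hormad1 and Sycp3 thus shared a pair of E-boxes with an E2F core further upstream, while their RNA changes had opposite signs in XX and in XY cells, as given below.

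**Figure D1:**
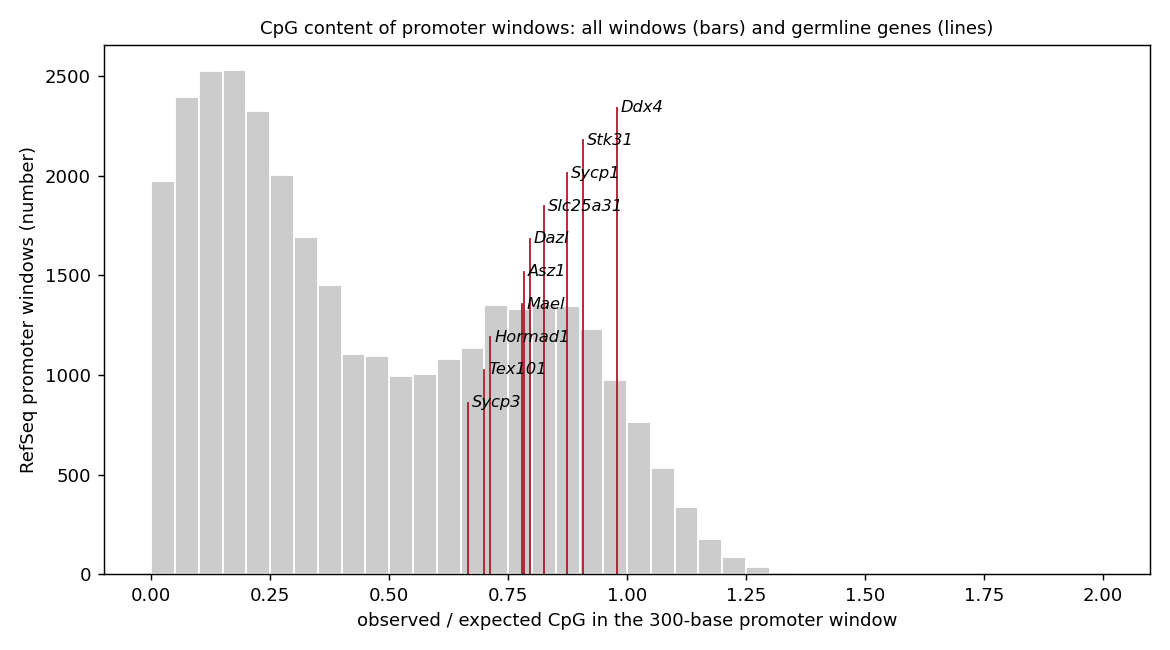
CpG content of promoters. Grey bars count the RefSeq promoter windows (vertical axis) by their ratio of observed to expected CG (horizontal axis), and each red line marks 1 of the 10 germline genes at its ratio; the height of a line has no meaning. All 10 genes lie between 0.666 and 0.978, above the median of all windows, 0.384.

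TPM (transcripts per 1000000, corrected for transcript length) was the deposited unit, and depth is unknown. In mESC the sum of 12 naive markers was 456 to 948 TPM per library, against 32.9 to 123 in EpiLC. The sum of 9 formative markers was 22.2 to 55.2 TPM in mESC and 371 to 477 in XY EpiLC, but only 52.2 to 63.6 in XX EpiLC, where Fgf5 averaged 2.46 TPM against 56.3 in XY EpiLC. Mutant 3 stood apart among the Tet3-/- EpiLC, with 183 TPM of formative markers against 57.1 and 58.9 and 127 TPM of mesoderm and neural markers against 4.26 and 4.74. These sums are not scaled. Scaling by the median ratio over genes, used below, divides mutant 3 by 1.34 and mutants 1 and 4 by 0.759 and 0.658, which narrows these gaps. Markers of later germ cells summed to at most 17.5 TPM in any library, and 2-cell markers to at most 4.94. Summed Tet3 TPM was 0.536 to 1.06 in XX mESC and 0.532 to 0.916 in Tet3-/- mESC, and 1.21 to 1.90 and 0.693 to 1.42 in EpiLC, so the groups overlapped on TPM. On scaled values the EpiLC groups did not overlap (log2 difference -0.34, adjusted p 0.114), and neither difference was called, so Tet3 RNA gave no clear check of the label. Which part of Tet3 is deleted is not given in the sources used here, and Tet3-/- stands for the libraries so labelled.

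Among the LF2 mESC, the wild-type library XX 2 was closer to mutants 2 and 3 (Pearson's r across 14972 genes 0.977 and 0.981) than to XX 1 and 3 (0.946 and 0.949). The germline genes followed this division: in 7 of 10, XX 2 was the lowest XX mESC library and mutants 2 and 3 lay below mutants 1 and 4. After scaling by the median ratio over genes this held for 10 of 10. That scaling divides XX 2 by 1.06 and XX 1 and 3 by 0.599 and 0.858, which lowers XX 2 against them for every gene. The share of all genes with the same order was not computed, so the counts do not show a trait particular to the germline genes. Counts, and some of the values that move by more than 1.5 times, are therefore also given without XX 2 and mutants 2 and 3, an alternative chosen after seeing the data. A value given without this alternative is not thereby shown to be stable. The libraries left out in it were low for most of the germline genes, so calls made without them are not independent evidence. What sets the 3 libraries apart was not tested.

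A gene was tested where at least 3 libraries reached 1 TPM. This left 9 of the 10 genes. Sycp1 reached that level in 2 libraries only. Dazl, Asz1 and Tex101 reached it in 10, 6 and 4 mESC libraries and in 0 EpiLC libraries, and Slc25a31 in 7 and 1. These genes were tested through the state where they are high, so their falls are not independent evidence of a direction. Called means an adjusted p below 0.05 (limma, a linear model per gene, with Benjamini-Hochberg adjustment over 14972 genes, behind each adjusted p below), and fold changes are log2 values of TPM + 1, which understate changes of low genes. A few abundant RNAs can shift all other TPM values, and the median log2 change of all genes was 0.14 in the XX, 0.54 in the XY and -0.13 in the Tet3-/- transition. Calls on values scaled by the median ratio, which brings these medians within 0.02 of 0, are given beside those on TPM for the 9 genes, and for gene lists where they move the split of higher and lower calls or the count by much. The share of all genes without overlap between 2 groups was not computed, so a lack of overlap below only describes the libraries of that gene.

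In XX and in Tet3-/- cells most of the tested germline genes were called lower in EpiLC than in mESC, but not in XY cells. In the XX transition 6 of 9 fell (Dazl, Asz1, Hormad1, Stk31, Tex101 and Slc25a31), where 12.2% of all genes were called lower. Dazl, Asz1 and Tex101 passed the filter through mESC libraries alone, so in each transition the comparison with the share of all genes is not an even one. Ddx4 alone rose, where 19.2% of all genes were called higher. In the XY transition 4 of 9 fell (Dazl, Hormad1, Stk31 and Tex101), against 9.36% of all genes, and Ddx4 and Sycp3 rose, against 41.1%. In the Tet3-/- transition the same 6 genes as in XX fell, against 21.5% of all genes, and Mael rose, against 13.6%. The 9 genes had a median log2 change of -1.25 in the XX, -0.39 in the XY and -1.85 in the Tet3-/- transition. On scaled values 25.9%, 25% and 27.2% of all genes were lower in the 3 transitions and 24.5%, 26.4% and 25.2% higher, and the germline counts were 6, 3 and 5 lower and 1, 2 and 2 higher. Without the 3 mESC libraries that stand apart, 1 gene was higher and 6 lower in XX, against 20.2% and 10.8% of all genes, and 0 and 6 in Tet3-/-, against 9.91% and 18.8%. Dazl, Hormad1, Stk31 and Tex101 fell in all 3 genotypes, with no overlap between mESC and EpiLC libraries, Tex101 at the edge of the threshold in XY and Tet3-/-. Ddx4, Mael and Sycp3 fell in none of the 3, so the data go against a common description of the 10 as genes that are shut off in EpiLC. Between 6 and 10 of the 10 genes reached 1 TPM in a library of XX or Tet3-/- mESC, 4 in each XY mESC library, and 2 to 5 in an EpiLC library. In cell cultures measured in bulk, fewer cells with a transcript and less transcript per cell cannot be told apart.

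**Figure D2:**
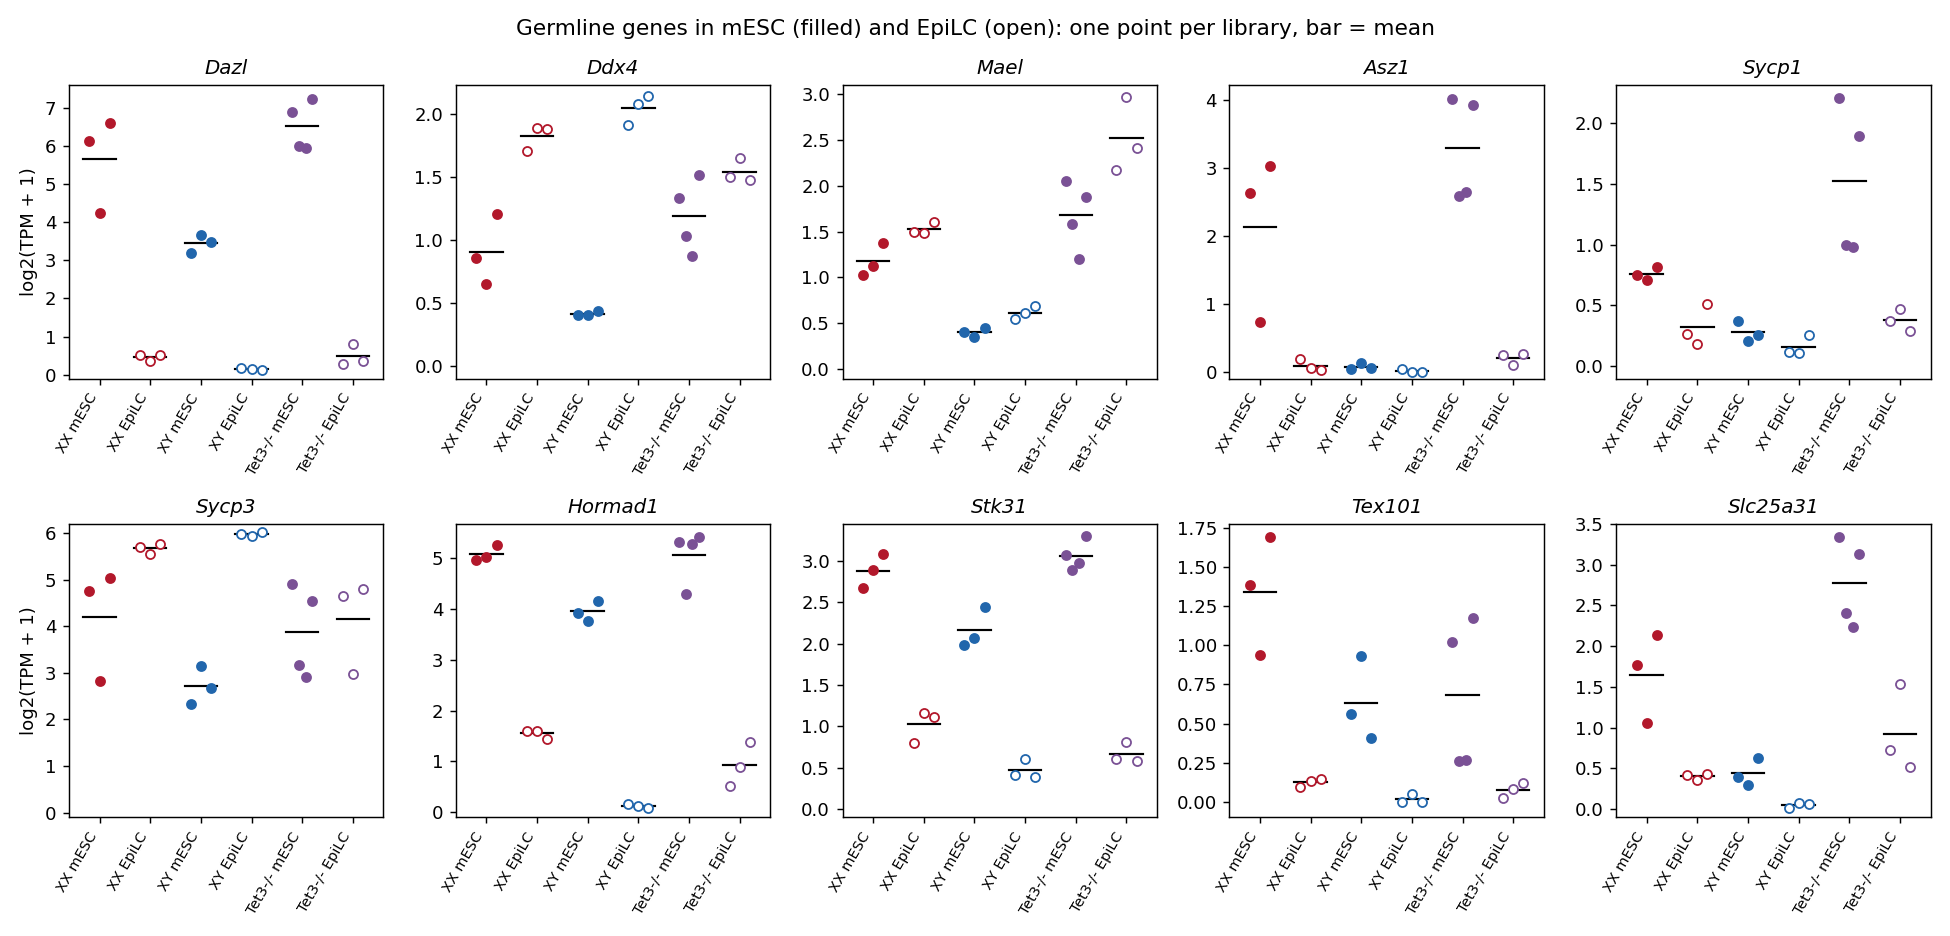
RNA levels of the 10 germline genes by library. Each panel is 1 gene, the vertical axis is log2(TPM + 1) with its own scale, filled points are mESC and open points EpiLC libraries, colours mark XX, XY and Tet3-/-, and bars are group means. Dazl, Hormad1 and Stk31 lie lower in EpiLC in each genotype, while Sycp3 and Ddx4 lie higher in XX and XY EpiLC than in the mESC of the same genotype.

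Dazl encodes an RNA-binding protein that germ cells need for their development and that acts on translation. Its TPM was 69.1, 17.7 and 94.9 in XX mESC, 8.10, 11.6 and 10.1 in XY mESC, and 118, 62.6, 60.3 and 150 in Tet3-/- mESC. In EpiLC it was 0.424, 0.276 and 0.426 in XX, 0.130, 0.108 and 0.0906 in XY, and 0.211, 0.744 and 0.290 in Tet3-/-. Every mESC library lay above every EpiLC library, and the XY libraries lay below the XX libraries in both states. By group means (60.6 to 0.375 TPM) the level in XX EpiLC was 161-fold lower, and it was 90.8-fold lower in XY and 236-fold lower in Tet3-/-. The log2 change was -5.19 in XX (SE 0.44, adjusted p 4.07e-08). For XY it was -3.29 (SE 0.44, adjusted p 5.98e-06) and for Tet3-/- -6.03 (SE 0.41, adjusted p 1.72e-09).

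Ddx4 encodes the germ cell DEAD-box RNA helicase that is the mouse counterpart of Vasa. Its TPM was 0.815, 0.567 and 1.31 in XX mESC, 0.325, 0.326 and 0.353 in XY mESC, and 1.52, 1.04, 0.830 and 1.86 in Tet3-/- mESC. In EpiLC it was 2.26, 2.71 and 2.68 in XX, 2.77, 3.22 and 3.42 in XY, and 1.83, 2.13 and 1.78 in Tet3-/-. Ddx4 was thus low everywhere and higher in EpiLC without overlap in XX and XY, while in Tet3-/- 1 mESC library (mutant 4) reached into the EpiLC range. It rose 2.84-fold by mean TPM in XX (log2 change 0.92, SE 0.18, adjusted p 0.000526) and 9.38-fold in XY (1.63, SE 0.18, adjusted p 5.54e-07). In Tet3-/- the log2 change was 0.35 (adjusted p 0.116), and 0.48 on scaled values (adjusted p 0.0292). It was 0.11 (adjusted p 0.678) without the 3 mESC libraries that stand apart.

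Mael and Asz1 act in the piRNA pathway, in which small RNAs of germ cells guide the silencing of transposons. Mael encodes an HMG-box protein of this pathway. Its TPM was 1.04, 1.18 and 1.59 in XX mESC, 0.321, 0.281 and 0.367 in XY mESC, and 3.15, 1.99, 1.30 and 2.68 in Tet3-/- mESC. In EpiLC it was 1.81, 1.80 and 2.03 in XX, 0.464, 0.531 and 0.613 in XY, and 3.49, 6.81 and 4.32 in Tet3-/-. On TPM the EpiLC libraries lay above the mESC libraries of their genotype in each case (in XY not on scaled values), and the Tet3-/- EpiLC had the highest Mael levels of the 6 groups. Only the Tet3-/- change was called (log2 change 0.84, SE 0.20, adjusted p 0.00264, from a mean of 2.28 to 4.88 TPM). It was 0.55 (adjusted p 0.0597) without the 3 mESC libraries that stand apart. The XX value was 0.35 (adjusted p 0.241). The XY value was 0.21 (adjusted p 0.409).

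Asz1 encodes an ankyrin-repeat protein of the germ granules next to mitochondria. Its TPM was 5.21, 0.667 and 7.16 in XX mESC and 15.2, 5.01, 5.24 and 14.3 in Tet3-/- mESC, but 0.0290, 0.0939 and 0.0411 in XY mESC. In EpiLC it was 0.138, 0.0384 and 0.0216 in XX, 0.187, 0.0745 and 0.201 in Tet3-/-, and 0.0281, 0 and 0 in XY. Asz1 RNA was therefore near 0 in the E14 cells in both states and above 0.6 TPM in each LF2 mESC library. It fell in XX (log2 change -2.04, SE 0.44, adjusted p 0.00135, 66.0-fold by mean TPM) and in Tet3-/- (-3.09, SE 0.41, adjusted p 7.71e-06, 64.5-fold). The XY value of -0.06 (adjusted p 0.917) started from a level with little room to fall.

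Other genes of the piRNA pathway changed in both directions. Of 21 genes in the list, which holds Mael, Asz1 and Ddx4, 15 were tested. In XX 5 were called higher and 7 lower, in XY 6 and 4, and in Tet3-/- 4 and 7. Their median log2 changes were -0.50, 0.30 and -0.61, in the same order, against 0.14, 0.54 and -0.13 over all genes. Of all genes, 19.2% were called higher and 12.2% lower in XX, 41.1% and 9.36% in XY, and 13.6% and 21.5% in Tet3-/-. Fkbp6, a piRNA pathway co-chaperone, fell from 28.3 to 0.501 mean TPM in XX (log2 change -4.14), from 7.31 to 0.0384 in XY (-2.92) and from 18.4 to 0.313 in Tet3-/- (-3.86). Gtsf1, a PIWI partner, fell from 14.0 to 0.268 mean TPM in XX. Tdrd5, a Tudor-domain protein, went the other way and rose from 0.220 to 3.27 mean TPM in XX (log2 change 1.81) and from 0.0967 to 10.6 in XY (3.39).

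Sycp1, Sycp3 and Hormad1 build the meiotic chromosome. Sycp3, a protein of the axial and lateral elements of the synaptonemal complex, had 26.0, 6.09 and 31.6 TPM in XX mESC, 4.06, 7.91 and 5.41 in XY mESC, and 28.8, 7.96, 6.54 and 22.4 in Tet3-/- mESC. In EpiLC it had 51.3, 45.8 and 53.1 TPM in XX, 62.4, 60.4 and 63.8 in XY, and 24.1, 6.92 and 27.0 in Tet3-/-. It was the only one of the 10 genes above 1 TPM in every library, and on TPM each wild-type EpiLC library lay above every mESC library. In the Tet3-/- cells the ranges of mESC and EpiLC overlapped. Sycp3 rose 10.7-fold by mean TPM in XY (log2 change 3.26, SE 0.57, adjusted p 0.000119). In XX the mean went from 21.2 to 50.0 TPM (log2 change 1.47, SE 0.57, adjusted p 0.0585; 0.78, adjusted p 0.287, without XX mESC 2, and 1.88, adjusted p 0.031, without XX mESC 3). In Tet3-/- the mean went from 16.4 to 19.3 (0.27, adjusted p 0.756, 95% confidence interval -0.85 to 1.39). In Tet3-/- the sign depended on the libraries, with -0.58 without mESC mutants 2 and 3.

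The spread of Sycp3 within the LF2 mESC was large and followed the division of the libraries. XX 2 and mutants 2 and 3 lay between 6.09 and 7.96 TPM, and the other 4 LF2 mESC libraries between 22.4 and 31.6. In EpiLC, mutant 3 had 6.92 TPM, the lowest value, while mutants 1 and 4 had 24.1 and 27.0. The libraries labelled mutant 3 were thus low in Sycp3 in both states, but in mESC mutant 2 and XX 2 were low as well. The labels do not say whether the mESC and EpiLC libraries of 1 number share an origin. In EpiLC mutant 3 also held the high mesoderm and neural markers given above, whose part in the value was not tested.

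Hormad1 encodes a HORMA-domain protein that coats chromosome axes before synapsis. It had 30.2, 31.6 and 37.7 TPM in XX mESC, 14.2, 12.7 and 16.9 in XY mESC, and 38.8, 18.6, 37.9 and 41.7 in Tet3-/- mESC. In EpiLC it had 2.04, 2.04 and 1.73 TPM in XX, 0.113, 0.0858 and 0.0534 in XY, and 0.429, 0.843 and 1.62 in Tet3-/-. On TPM the 3 EpiLC groups did not overlap each other, XX being the highest and XY the lowest, while on scaled values XX and Tet3-/- overlapped. By mean TPM, Hormad1 was 17.1-fold lower in EpiLC in XX, 174-fold in XY and 35.6-fold in Tet3-/-. The log2 change was -3.53 in XX (SE 0.27, adjusted p 9.22e-09). For XY it was -3.84 (SE 0.27, adjusted p 1.66e-09), and for Tet3-/- -4.15 (SE 0.25, adjusted p 3.43e-10).

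Sycp1 encodes the transverse filament that links the paired axes. It had 0.682, 0.631 and 0.765 TPM in XX mESC, 0.291, 0.158 and 0.196 in XY mESC, and 3.61, 0.999, 0.978 and 2.71 in Tet3-/- mESC. In EpiLC its range was 0.136 to 0.425 in XX, 0.0793 to 0.193 in XY and 0.220 to 0.384 in Tet3-/-. On TPM each Tet3-/- mESC library lay above each XX mESC library, but not on scaled values, and the difference was not called in a fit without a filter on low genes (log2 difference 0.76, adjusted p 0.327). In that fit (46217 genes) its log2 change from mESC to EpiLC was -1.14 in Tet3-/- (adjusted p 0.00212), -0.44 in XX (adjusted p 0.367) and -0.12 in XY (adjusted p 0.825).

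Of 23 genes of the meiotic axis, synapsis and recombination, which include these 3, 16 were tested. In XX 2 were called higher and 5 lower, in XY 5 and 5, and in Tet3-/- 1 and 9. Their median log2 change was -0.14, 0.44 and -1.07 in the 3 transitions, against 0.14, 0.54 and -0.13 over all genes. Of all genes, 19.2% were called higher and 12.2% lower in XX, 41.1% and 9.36% in XY, and 13.6% and 21.5% in Tet3-/-. Syce1, a central element protein of the synaptonemal complex, fell from 13.4 to 0.732 mean TPM in XX, from 3.58 to 0.262 in XY and from 23.3 to 1.03 in Tet3-/-. Stra8, a switch for entry into meiosis, fell from 1.65 to 0.0584 mean TPM in XX and from 4.68 to 0.0576 in Tet3-/-. Dmc1, a meiotic recombinase, rose in XY from 1.25 to 8.19 mean TPM (log2 change 2.02), as did the mismatch repair homologue Msh5 in XX (0.536 to 2.20) and XY (0.441 to 3.15).

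Stk31, Tex101 and Slc25a31 are known from sperm development. Stk31, which encodes a protein with a Tudor and a kinase domain, had 5.39, 6.41 and 7.44 TPM in XX mESC, 2.95, 3.18 and 4.45 in XY mESC, and 7.38, 6.44, 6.85 and 8.88 in Tet3-/- mESC. In EpiLC it had 0.745, 1.23 and 1.16 TPM in XX, 0.332, 0.522 and 0.309 in XY, and 0.519, 0.760 and 0.491 in Tet3-/-. The mESC and EpiLC libraries did not overlap, and Stk31 had little spread within groups. It fell in each genotype. The log2 change was -1.86 for XX (SE 0.18, adjusted p 2.06e-07), -1.70 for XY (SE 0.18, adjusted p 3.54e-07) and -2.39 for Tet3-/- (SE 0.17, adjusted p 2.42e-09).

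Slc25a31 encodes the ADP/ATP carrier of meiotic mitochondria. Its TPM was 2.40, 1.07 and 3.40 in XX mESC, 0.314, 0.232 and 0.541 in XY mESC, and 9.10, 4.32, 3.72 and 7.74 in Tet3-/- mESC. In EpiLC it was 0.334, 0.286 and 0.351 in XX, 0.0113, 0.0507 and 0.0469 in XY, and 0.648, 1.90 and 0.427 in Tet3-/-. On TPM the Tet3-/- libraries lay above the XX libraries in both states, and the XY mESC overlapped with the XX EpiLC. It fell in XX (log2 change -1.25, SE 0.30, adjusted p 0.00354) and in Tet3-/- (-1.85, SE 0.28, adjusted p 3.63e-05). The XY value was -0.39 (adjusted p 0.29), and -1.72 (adjusted p 0.00651) with a pseudocount of 0.1, which weights low levels more.

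Tex101, which encodes a cell surface glycoprotein of male germ cells, was at a low level throughout. Its TPM was 1.62, 0.918 and 2.24 in XX mESC, 0.472, 0.906 and 0.323 in XY mESC, and 1.03, 0.198, 0.202 and 1.25 in Tet3-/- mESC, and at most 0.103 in any EpiLC library. It fell in XX (log2 change -1.22, SE 0.23, adjusted p 0.000421). The changes in XY (-0.62, adjusted p 0.0332) and Tet3-/- (-0.61, adjusted p 0.0357) were at the edge of the threshold: on scaled values the adjusted p was 0.0529 and 0.0644, and the call held in 1 of 6 and 2 of 7 fits that left out 1 library. Without mESC mutants 2 and 3 the Tet3-/- value was -1.02 (adjusted p 8.21e-05).

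**Figure D3:**
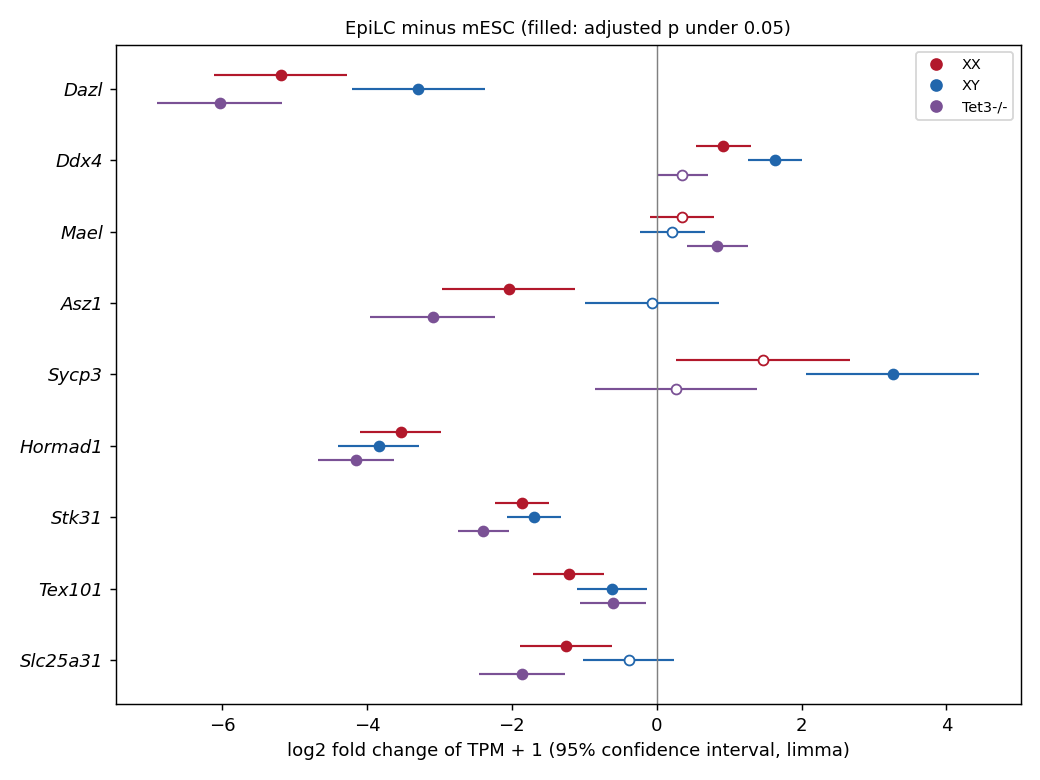
Change from mESC to EpiLC of the 9 tested germline genes. The horizontal axis is the limma log2 fold change of TPM + 1 with its 95% confidence interval, colours mark XX, XY and Tet3-/-, and filled points have an adjusted p below 0.05. Dazl reaches from -6.03 to -3.29 and Hormad1 from -4.15 to -3.53, while Sycp3 and Ddx4 lie at or above 0 in all 3 genotypes.

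A list of 25 other germline genes with CpG-rich promoters holds Dazl, Stk31, Tex101 and Slc25a31, and some of its genes, such as Syce1, are also in the lists above. Of the 25, 22 were tested. In XX 1 was called higher and 14 lower, in XY 2 and 11, and in Tet3-/- 1 and 18 (on scaled values 1 and 17, 2 and 12, and 1 and 16). The median log2 change was -1.35, -0.65 and -1.69, against 0.14, 0.54 and -0.13 over all genes. On TPM the shares of all genes called higher and lower were 19.2% and 12.2% in XX, 41.1% and 9.36% in XY, and 13.6% and 21.5% in Tet3-/-. Rpl10l, a testis copy of a ribosomal protein gene, fell from 42.7 to 1.47 mean TPM in XX, from 70.1 to 1.14 in XY and from 71.2 to 3.76 in Tet3-/-. Sohlh2, a transcription factor of early germ cells, fell from 12.3 to 0.154 mean TPM in XX and from 16.1 to 0.392 in Tet3-/-. Of 8 markers of primordial germ cells 1 was called higher and 5 lower in XX, 0 and 3 in XY, and 1 and 6 in Tet3-/-. On scaled values the counts were 1 and 6, 0 and 6, and 1 and 7, where 25.9%, 25% and 27.2% of all genes were lower, as given above. Among them Dppa3 fell from 60.7 to 2.85, from 36.6 to 0.118 and from 55.3 to 0.821 mean TPM. Dppa3 and Prdm14 are in the list of naive markers too, so these counts are not separate from the fall of those markers. The listed genes were picked with earlier results of these data known, and their counts are not independent evidence of a direction.

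The wild-type mESC of both lines were compared next. In mESC, 7 of 9 germline genes were higher in XX LF2 than in XY E14 cells and none was lower, where 6.43% of all genes were called higher and 7.73% lower. These were Dazl, Mael, Asz1, Hormad1, Stk31, Tex101 and Slc25a31. Their median log2 difference over the 9 genes was 1.13, against -0.19 over all genes, and on scaled values 8 were higher, where 17.7% of all genes were. Mael, Asz1, Tex101 and Slc25a31 reached 1 TPM in LF2 libraries alone, so they were tested through the line where they were higher. Dazl was 6.09-fold higher by mean TPM (log2 difference 2.21, SE 0.44, adjusted p 0.00192) and Slc25a31 6.32-fold (1.21, SE 0.30, adjusted p 0.0106). Asz1 had 4.35 against 0.0547 mean TPM (log2 difference 2.06, SE 0.44, adjusted p 0.0034). Hormad1 was 2.27-fold higher (log2 difference 1.13, adjusted p 0.00692) and Stk31 1.82-fold (0.72, adjusted p 0.0109). Ddx4 (0.49, adjusted p 0.078) and Sycp3 (1.48, adjusted p 0.0954) also had higher means in XX.

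The count of 7 depended on single libraries. It was 3 without XX 3, 4 without XY 1, and 9 without XX 2, where Ddx4 (adjusted p 0.0282) and Sycp3 (adjusted p 0.00824) were called too. Without XX 2 and mutants 2 and 3 the count was also 9, against 7.65% of all genes called higher and 13.6% lower. Dazl, Asz1 and Hormad1 were the 3 genes that kept their calls without XX 3, and Dazl was 1.74 without XX 3 and 2.92 without XX 2. Mesoderm and neural markers summed to 1.07 to 1.22 TPM in XX and 7.96 to 12.8 in XY mESC, and primitive endoderm markers to 1.82 to 9.28 and 0.656 to 1.11. Their part in the differences was not tested. In the related lists, on all libraries, 6 of 15 piRNA genes were higher and 1 lower in XX mESC (9 and 2 on scaled values). Of 16 meiotic genes 9 were higher and 0 lower (12 and 0). Of 22 other CpG-rich germline genes 11 were higher and 0 lower (13 and 2 on scaled values). The shares of all genes were 6.43% higher and 7.73% lower (17.7% and 13.6% on scaled values). Smc1b, a meiotic cohesin subunit, had 7.77 against 0.333 mean TPM and Piwil2, a PIWI protein, 6.75 against 0.928.

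In EpiLC, 3 of 9 germline genes were higher in XX than in XY and none was lower, against 5.23% of all genes higher and 42% lower. On scaled values the same number was called, against 17.2% higher and 16.6% lower. Hormad1 was 23.1-fold higher by mean TPM (1.94 against 0.0841, log2 difference 1.44, SE 0.27, adjusted p 0.000504), Mael 3.51-fold (0.91, SE 0.21, adjusted p 0.00309) and Stk31 2.70-fold (0.55, SE 0.18, adjusted p 0.0195). The Stk31 call was lost without XX 2, XX 3 or XY 3 (adjusted p 0.075, 0.0619 and 0.0742). Dazl, Tex101 and Slc25a31 were not called. Their XX and XY EpiLC libraries did not overlap, at levels below 0.5 TPM, and how many of all genes did not overlap is unknown. Ddx4 and Sycp3 were higher in each XY library on TPM, and their sign turned with the scaling (-0.22 and -0.31 on TPM, 0.31 and 0.41 on scaled values). The naive markers beside these values summed to 109 to 123 TPM in XX and 88.6 to 96.9 in XY EpiLC. Of these 12 markers 9 were called higher in XX and 1 lower (10 and 0 on scaled values). The formative markers had the sums given above, and all 9 were called lower in XX, on TPM and on scaled values. The part of both sets in the differences was not tested.

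The fall from mESC to EpiLC was larger in XX than in XY for 2 of 9 genes, where 12.4% of all genes had a lower change in XX and 3.61% a higher one. These were Dazl (difference of log2 changes -1.90, SE 0.62, adjusted p 0.0441) and Asz1 (-1.98, SE 0.62, adjusted p 0.0363). The calls were weak: Dazl kept its call in 1 of 12 fits that left out 1 library (without XX mESC 2) and Asz1 in 2 (without XX mESC 2 or XY mESC 3). The adjusted p reached 0.136 and 0.114, in each case without XX mESC 3. Without XX 2 and mutants 2 and 3, 6 genes had a lower change in XX, among them Sycp3 (-2.48, adjusted p 0.00601), against 11.8% of all genes, and 0 had a higher one, against 4.12%. On scaled values Asz1 alone was called, where 12.8% of all genes had a lower and 10.9% a higher change. For Hormad1 the difference was 0.30 (adjusted p 0.614), while its mean TPM went from 33.1 to 1.94 in XX and from 14.6 to 0.0841 in XY. With a pseudocount of 0.1 its log2 changes were -4.02 in XX and -6.32 in XY, and those of Dazl were -6.70 and -5.57. The size of these differences thus depended on the pseudocount, and with 0.1 Hormad1 was called with a higher change in XX, as given below.

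Tet3-/- and XX cells of the LF2 line were compared in both states. In mESC 0 of 9 germline genes were called, where 0.494% of all genes were called higher and 0.107% lower, and 1359 of 14972 genes had an unadjusted p below 0.05. On scaled values 0 were called as well, against 1.77% and 1.42%. The nearest was Slc25a31. On TPM, though not on scaled values, its Tet3-/- libraries (3.72 to 9.10 TPM) lay above every XX library (1.07 to 3.40), and the log2 difference was 1.13 (SE 0.28, 95% confidence interval 0.53 to 1.72, adjusted p 0.0906). Asz1 had a log2 difference of 1.16 (SE 0.41, 95% confidence interval 0.30 to 2.03, adjusted p 0.297) and Dazl of 0.87 (SE 0.41, 95% confidence interval 0.01 to 1.73, adjusted p 0.543). Without XX 2 alone these values were 0.46 (adjusted p 0.377) and 0.16 (adjusted p 0.78), and without XX 3 that of Dazl was 1.34 (adjusted p 0.255). Hormad1 differed by -0.01 (95% confidence interval -0.53 to 0.51) and Stk31 by 0.18 (-0.17 to 0.53). Without XX 2 and mutants 2 and 3 these were 0.25 (adjusted p 0.613) and 0.31 (adjusted p 0.525). Tex101 had the opposite sign, with -0.66 (95% confidence interval -1.11 to -0.21, adjusted p 0.231).

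Without XX 2 and mutants 2 and 3, which leaves 2 libraries in each of these groups, 2 genes were called higher in Tet3-/- mESC, against 1.42% of all genes. They were Asz1 (14.3 and 15.2 against 5.21 and 7.16 TPM, log2 difference 1.15, adjusted p 0.00115) and Slc25a31 (7.74 and 9.10 against 2.40 and 3.40 TPM, 1.28, adjusted p 0.0214). The libraries left out were chosen after seeing the data and were the lowest of their groups for both genes. These calls are thus not independent evidence of a difference. Without XX 2 alone neither gene was called (Asz1 0.46, adjusted p 0.377, and Slc25a31 0.83, adjusted p 0.124). Without mutant 3 alone Slc25a31 was called (1.31, adjusted p 0.0476). In the meiotic list 2 genes were called in Tet3-/- mESC on all libraries, both upward. Stra8 had 4.68 against 1.65 mean TPM (adjusted p 0.0113). Meioc, a regulator of meiotic prophase, had 6.16 against 1.54 (adjusted p 0.0198). Of 15 piRNA genes 0 were called on TPM, and 1, upward, after scaling. Among the 22 tested genes of the other CpG-rich germline list, 2 were called on TPM and 4 after scaling, all upward. Across all genes 0.494% were called upward on TPM and 1.77% after scaling. Some genes are in several lists, so these counts are not separate.

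In EpiLC, Mael alone was called, where 0.12% of all genes were higher and 0.955% lower in Tet3-/-. Its mean was 4.88 TPM against 1.88 in XX (2.59-fold, log2 difference 0.99, SE 0.21, adjusted p 0.0261), and each Tet3-/- library lay above each XX library. On scaled values the log2 difference was 1.10 (adjusted p 0.00255), where 2.5% of all genes were higher and 2.96% lower. The call on TPM was lost in 5 of 6 fits that left out 1 library, with adjusted p between 0.0571 and 0.136 and a log2 difference between 0.76 and 1.04; 0.76 was the value without mutant 3, which had the most Mael RNA. Sycp3 was lower in each Tet3-/- EpiLC library (6.92 to 27.0 TPM) than in each XX library (45.8 to 53.1), with a log2 difference of -1.52 (SE 0.57, 95% confidence interval -2.72 to -0.33, adjusted p 0.315), and of -0.94 without mutant 3. Hormad1 (0.429 to 1.62 against 1.73 to 2.04 TPM) and Ddx4 (1.78 to 2.13 against 2.26 to 2.71) did not overlap on TPM, overlapped on scaled values and were not called (adjusted p 0.417 and 0.733). Slc25a31 lay above XX in each Tet3-/- library (log2 difference 0.52, adjusted p 0.68, and 0.21 without mutant 3). The naive markers beside these values summed to 32.9 to 95.7 TPM in Tet3-/- and 109 to 123 in XX EpiLC, with 2 of 12 called lower in Tet3-/- (8 on scaled values). Their part in the differences was not tested.

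The change from mESC to EpiLC itself did not differ detectably between Tet3-/- and XX for any of the 9 genes. Of all genes 0.174% had a lower and 0 a higher change, and 1152 had an unadjusted p below 0.05. The differences ranged from -1.20 (Sycp3, 95% confidence interval -2.84 to 0.44) to 0.61 (Tex101, 95% confidence interval -0.05 to 1.27), so differences of a log2 unit or more lie inside the intervals of several genes. Without XX 2 alone the differences were -0.51 for Sycp3, -0.35 for Asz1 (from -1.05) and -0.13 for Dazl (from -0.84). Without XX 2 and mutants 2 and 3, Asz1 had a larger fall in Tet3-/- (-1.03, adjusted p 0.0243), where 0.701% of all genes had a lower and 0.0468% a higher change. The libraries left out were the lowest of their mESC groups for Asz1, so this call is not independent evidence.

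**Figure D4:**
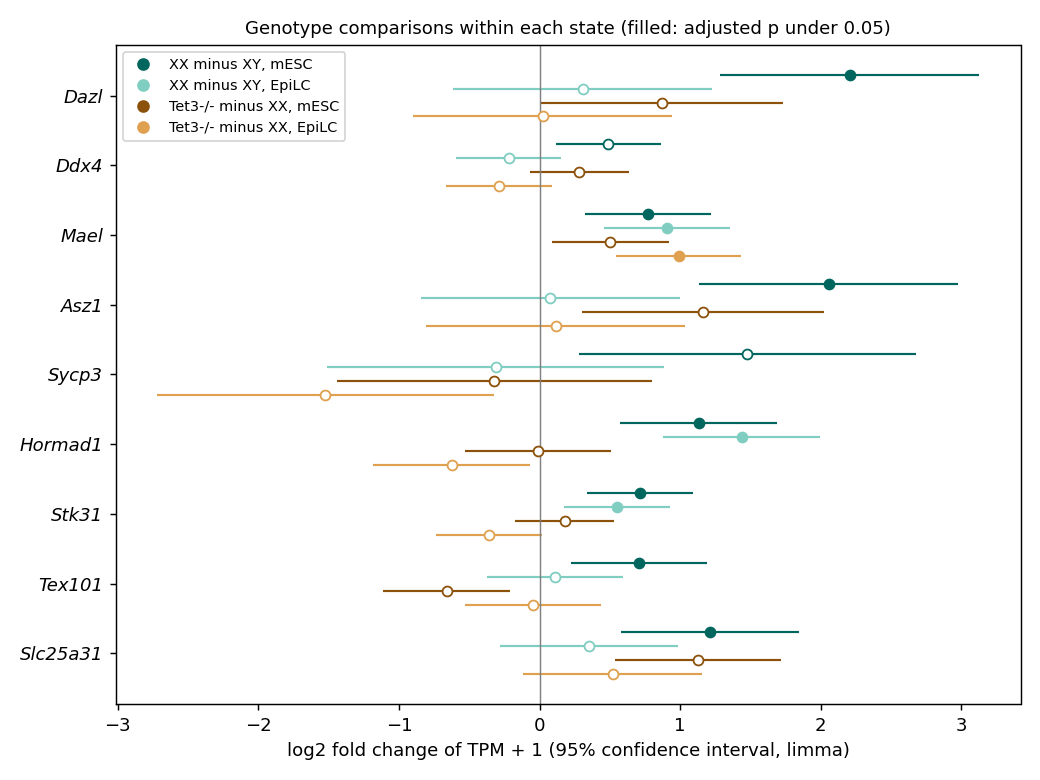
Differences between genotypes within each state for the 9 tested germline genes. The horizontal axis is the limma log2 difference of TPM + 1 with its 95% confidence interval, green points are XX minus XY, brown points Tet3-/- minus XX, darker shades are mESC, and filled points have an adjusted p below 0.05. In mESC all 9 genes lie to the right of 0 for XX minus XY, 7 of them filled, and Mael in EpiLC is the filled point for Tet3-/- minus XX.

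Some of the genes have annotated starts inside the gene, so the transcripts behind the sums were examined. Dazl-201, which starts at the promoter shown above, held 58.8% of Dazl TPM over all libraries, and Dazl-204, which starts 744 bases downstream, 20.7%. The share of Dazl-204 was 21.5% ± 3.82 (SD, n = 3) in XX mESC, 22.7% ± 3.79 (SD, n = 4) in Tet3-/- mESC and 11.3% ± 1.62 (SD, n = 3) in XY mESC, where no XY library (9.82% to 13.0%) reached the others (17.5% to 26.3%). A short Stk31 transcript that starts 42960 bases downstream of the first start held 26.0% of Stk31. Tex101-201, with 99.5%, starts 4625 bases downstream of the first annotated start. Of the rest, Ddx4-202, Mael-201 and Slc25a31-201 held 95.9%, 92.5% and 100% of their genes. Asz1-202, which is annotated as a processed transcript and not as coding, held 22.3% of Asz1. How reads were divided between overlapping transcripts was decided by the authors' quantification.

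Known regulators of such promoters were examined as well. All 15 listed subunits and partners of the E2F6 repressor complex were tested: 0 rose and 1 fell in XX, 4 rose and 0 fell in XY, and 0 rose and 2 fell in Tet3-/-. The shares of all genes called higher and lower, for this and the next list, were 19.2% and 12.2% in XX, 41.1% and 9.36% in XY, and 13.6% and 21.5% in Tet3-/-. E2f6 itself rose in XY from 6.49 to 14.6 mean TPM (log2 change 1.07), a change of 0.45 on scaled values, where the counts for the complex were 0 and 5, 4 and 4, and 0 and 3. Of 15 genes of DNA methylation, its removal and H3K9 methylation, 4 rose and 1 fell in XX, 7 and 3 in XY, and 3 and 4 in Tet3-/- (on scaled values 5 and 6, 6 and 5, and 6 and 6). The de novo methyltransferase gene Dnmt3b rose from 5.71 to 25.8 mean TPM in XX, from 12.1 to 163 in XY and from 5.88 to 34.6 in Tet3-/-, and Dnmt3a from 1.66 to 7.97, from 3.86 to 29.7 and from 1.16 to 8.57. Tet2 fell from 15.0 to 2.60 mean TPM in XX and from 14.4 to 1.46 in Tet3-/-. Tet1 had 23.8 mean TPM in XX mESC and 0.471 in XY mESC (log2 difference 4.04, adjusted p 4.26e-07). Whether these levels bear on those of the germline genes was not tested.

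The 10 genes did not vary as a block. Over the 19 libraries, which share line and state, Pearson's r of log2(TPM + 1) was 0.98 for Hormad1 with Stk31, 0.97 for Dazl with Stk31, 0.95 for Dazl with Hormad1 and 0.95 for Asz1 with Slc25a31. Ddx4 and Sycp3 had an r of 0.85 with each other and of -0.58 and -0.43 with Dazl. Mael had an r between -0.09 and 0.44 with the other 9. Among 12491 protein-coding genes outside the 10, Gtsf1 (r 0.990), Nckap1l (0.988) and Sash3 (0.987) were most like Dazl, and Fbxo15 (0.988), Phf11d (0.988) and Pecam1 (0.986) most like Hormad1. The 3 genes most like Asz1, Magea2 (0.997), Magea6 (0.994) and Pramel3 (0.994), and the 3 most like Slc25a31, Xlr5c (0.976), Gm14685 (0.975) and AU022751 (0.971), are all on the X chromosome. For Stk31 they were D630023F18Rik (0.988), Fbxo15 (0.987) and Fam3b (0.986). For Sycp3 the highest r were lower, with Grina (0.939), Enpp5 (0.937) and Zfr2 (0.925). The Magea and Xlr genes have near-identical copies, so reads could be split between them. These r describe 19 libraries in 6 groups and carry no p.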

How the data were processed

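RNA was measured in 19 libraries with a stranded total RNA kit after depletion of ribosomal RNA, per the labels' protocols. The authors deposited TPM for 140948 transcripts, each column summing to 1000000. FastQC 0.11.7, Trimmomatic 0.35, Salmon 1.1.0 and the build GRCm38 are named in the submitters' processing notes. The annotation release is not given in the sources used here, and TPM keeps no depth, so the spread between libraries sets the precision. Gene values are sums over the transcripts that GENCODE M21 (GRCm38) gives a gene: 139357 matched with their version and 495 without it. The other 1096 held at most 0.215% of TPM in a library and were left out.

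Genes with at least 1 TPM in at least 3 libraries were tested (14972). The model was a limma fit (version 3.58.1, R 4.3.3) with 6 groups over the log2(TPM + 1) values of the 19 libraries (lmFit, contrasts.fit, eBayes with a trend, two-sided). In each of 9 contrasts the p-values got a Benjamini-Hochberg adjustment, and genes below 0.05 were called. The fit was tested on simulated data. Alternatives were a pseudocount of 0.1, no filter, median-of-ratios scaling, a replicate block, each library left out, and, added after the data were seen, 3 mESC libraries left out. The 10 genes, the lists and the tests were chosen with earlier results of these data known. Named were all 10 genes, up to 4 called genes a list with the largest log2 change and a mean of at least 1 TPM in the higher group, transcripts with at least 10% of a gene's TPM, and the 3 genes most like each germline gene that reached a mean of 5 TPM. Promoter windows were RefSeq's, of GRCm38.p6, and were searched with Python 3.11.15.

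Whether library numbers pair samples was checked from deviations from group means. Between states the correlation of libraries with the same number was between -0.05 and 0.30 and above 0.1 in only part of the pairs, so the numbers were not used as pairs.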

Additional observations from a re-analysis of the deposited data

Results flagged for a closer look

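Among the 4 Tet3-/- mESC libraries, mutant 2 lay far below the others for Hormad1, at 18.6 TPM against 37.9, 38.8 and 41.7. Its gap to the nearest library took a share of 0.836 of the whole range, above the critical value of Dixon's test for 4 samples. Chance flags about 1 in 20 such groups, and 9 genes were looked at. Mutant 2 was also the lowest Tet3-/- mESC library on scaled values, at 19.7 against 37.0, 38.3 and 42.9. There its gap took a smaller share of the range, below that critical value, so the flag holds for TPM only.

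The change from mESC to EpiLC differed between XX and XY for Dazl, by -1.90, and for Asz1, by -1.98, each by limma's test of the difference itself. Asz1 was below 0.1 TPM in XY mESC, so its XY change could not be large in absolute terms. Both calls were lost in most fits that left out 1 library, and the size of the Dazl difference also depended on the pseudocount.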

How the results depend on the processing

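Depth is unknown from TPM, which limits genes below 1 TPM most, and no group has more than 4 libraries. The count of germline genes called lower was 6 in the XX, 5 or 6 in the Tet3-/- and 3 to 5 in the XY transition (4 as reported) over the alternatives run. With 1 library left out, the count called higher was 1 to 2 in the XX transition, 1 to 2 in the Tet3-/- transition, 3 to 9 for XX minus XY mESC, 0 to 1 for Tet3-/- minus XX in mESC and 0 to 1 in EpiLC, 2 to 3 for XX minus XY in EpiLC, and the count with a lower change in XX than in XY was 0 to 4. With scaling 2 genes were higher in the Tet3-/- transition, and 1 had a lower change in XX than in XY. That count was 0 with no filter and 6 without XX 2 and mutants 2 and 3; 1 gene (Hormad1) had a higher change in XX with a pseudocount of 0.1. Leaving out those 3 libraries gave 0 genes higher in the Tet3-/- transition, 2 higher in Tet3-/- mESC and 1 with a lower change in Tet3-/- than in XX. For Tet3-/- minus XX in EpiLC the count was 0 with a pseudocount of 0.1, with no filter and with the block. The causes were not tested.

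With the replicate block (numbers within a genotype for transitions, across genotypes within a state) 2 genes were higher in the XX transition, since Sycp3 was called (adjusted p 0.00588), and Sycp3 also had a lower change in XX than in XY (adjusted p 0.0293); the call of Mael in Tet3-/- EpiLC was lost (adjusted p 0.09). The block changed no other call of the 9 genes.

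Signs turned only for genes that were not called. For Tet3-/- minus XX in EpiLC, Dazl was -0.0058 with a pseudocount of 0.1, -0.26 with the block, -0.029 without XX 2 and -0.14 without mutant 3 (range over single libraries -0.14 to 0.13), and Asz1 was -0.21 with the block. For the same genotypes in mESC, Sycp3 was 0.090 without XX 3 and 0.00021 without mutant 3 (range -1.01 to 0.090), Hormad1 was 0.083 without XX 3, 0.25 without mutant 2 (range -0.12 to 0.25) and 0.25 without the 3 libraries, and Stk31 was -0.065 on scaled values. In the Tet3-/- transition Sycp3 was -0.056 without mESC mutant 3, -0.063 without EpiLC mutant 4 (range -0.063 to 0.85) and -0.58 without mESC mutants 2 and 3. For XX minus XY in EpiLC, Ddx4 was 0.31 and Sycp3 0.41 on scaled values. For the XX minus XY difference of changes, Mael was -0.036 and Stk31 0.37 with a pseudocount of 0.1.

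Over all genes, scaling moved the number called from 4689 to 7542 in the XX transition, from 90 to 477 and from 161 to 817 for Tet3-/- minus XX in mESC and EpiLC, from 2121 to 4679 for XX minus XY in mESC, and from 26 to 99 for the difference of the Tet3-/- and XX changes. The count of 90 was 34 with a pseudocount of 0.1, 55 with no filter, 53 with the block and 240 without the 3 libraries, and the count of 26 was 17, 1 and 112 with the pseudocount, the block and without the 3 libraries. Leaving out 1 library gave 15 to 365 in place of 90, 39 to 318 in place of 161, 11 to 102 in place of 26 and 1353 to 3497 in place of 2121, and 4068 to 6774 in place of 7074 for XX minus XY in EpiLC.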
